A study of Mus musculus with 6 samples.

Results

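The genes described here are 7 genes of the endothelial response to shear stress, the drag of flowing blood on the vessel wall: Klf2, Klf4, Klf6, Nos3, Piezo1, Mef2c and Mapk7. They were taken by symbol from the deposited expression table, where they fill 8 of 17241 transcript rows (Mef2c has 2) and are 7 of 12623 genes. All 7 passed the filter on low values, an RPKM (reads per kilobase of transcript, scaled to the mapped reads of the library) of at least 1 in at least 1 library, as did 12458 genes in all. RNA was measured in lung endothelial cells (EC) from infant mice, in the second week after birth, and from young adult mice, all C57BL/6N with no transgene or treatment named, in 3 libraries per age that the submitters call independent biological replicates. Cells were sorted by FACS as living, CD31+ and CD34+ cells without PTPRC, LYVE1, LY76 and PDPN. This sort did not separate blood vessel EC by calibre or flow. Whether a library held 1 mouse or several is not given in the sources used here.

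EC read shear stress through channels and junction complexes at their surface, among them the calcium channel PIEZO1. One route runs through the kinase ERK5, which Mapk7 encodes, to the MEF2 transcription factors, of which MEF2C is one, and these switch on the Krüppel-like factors KLF2 and KLF4. KLF2 and KLF4 in turn raise transcription of anti-inflammatory and anticoagulant genes and of Nos3, the endothelial nitric oxide synthase, and KLF6 is a family member known for its part in vascular injury and remodelling. In the lung, the capillary bed of the newborn is remodelled and expanded while it already carries the full output of the right heart.

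Because Klf2, Klf4 and Klf6 turned out to rank the infant libraries alike, the bases before their starts are shown, 5′ to 3′ on the strand of the gene, from GRCm38.p6. Each run holds the 200 bases before the start of the GENCODE transcript, and capitals mark the match to the MEF2 consensus (binding sites of the MEF2 factors) and the GC box GGGCGG, read on both strands.
Klf2 chr8:72318833-72319032 (plus strand): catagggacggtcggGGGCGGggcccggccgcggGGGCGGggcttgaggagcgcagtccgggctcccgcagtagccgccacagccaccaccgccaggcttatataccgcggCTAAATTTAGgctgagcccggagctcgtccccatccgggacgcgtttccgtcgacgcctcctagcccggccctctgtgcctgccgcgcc
Klf4 chr4:55532476-55532675 (minus strand): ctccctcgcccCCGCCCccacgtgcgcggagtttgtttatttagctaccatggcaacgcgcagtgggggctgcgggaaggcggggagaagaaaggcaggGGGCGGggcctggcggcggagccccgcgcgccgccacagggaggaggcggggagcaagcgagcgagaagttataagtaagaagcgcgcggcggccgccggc
Klf6 chr13:5861282-5861481 (plus strand): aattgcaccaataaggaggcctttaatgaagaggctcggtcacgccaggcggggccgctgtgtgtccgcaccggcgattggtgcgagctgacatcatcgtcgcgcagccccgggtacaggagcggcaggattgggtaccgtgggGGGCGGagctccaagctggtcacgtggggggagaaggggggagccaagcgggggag
The run for Klf2 ends 29 bases before the RefSeq start and holds 1 MEF2 match, CTAAATTTAG, and 2 GC boxes. The runs for Klf4 and Klf6 hold 0 MEF2 matches, with 2 and 1 GC boxes. In the 250 bases before every RefSeq start, the MEF2 consensus is in 959 of 32851 windows (2.92%) and the GC box in 10756 (32.7%). Among the members with such a window (all but Nos3), Klf2 was the 1 with a MEF2 match, 118 bases before its RefSeq start. The letters CACCC, the core that Krüppel-like factors bind, are in 52.0% of all windows, and they occur once in the window of Klf2, 4 times in that of Mapk7 and not in those of Klf4 and Klf6. The CArG box, the site of serum response factor, is in 1.47% of all windows and in none of the members' windows. These matches describe the letters and not binding.

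The sort was checked on marker genes before the members were compared. Cdh5 (VE-cadherin) lay between 213.8 and 316.9 RPKM in all 6 libraries, and of 16 endothelial markers 0 were called. Their median log2 fold change was nevertheless 0.37, with 14 of 16 above 0. Of the 16, 9 had no overlap between ages, against 43.4% of all genes. Their summed level was 4398.2, 6030 and 4177 RPKM in infant 1, 2 and 3 and between 6094.5 and 6844.7 RPKM in the young adult libraries. Libraries differed by age in other cells' transcripts. Pdgfra, a fibroblast marker, was at 87.2, 2.6 and 66.8 RPKM in infant 1, 2 and 3 and between 0.2 and 0.6 in young adult libraries. Acta2, a smooth muscle marker, lay between 17.8 and 74.4 in infant and between 3.2 and 4.3 in young adult libraries. Ptprc (leukocytes) was at 3.0 to 7.0 against 0.2 to 1.8, and Epcam (epithelium) at 0.6 to 1.1 against 0 to 0.5. Sftpc (epithelium) was far more abundant, at 3733.9 to 4683.1 RPKM in infant and 1450.9 to 4883.1 RPKM in young adult libraries. Lyz2 (leukocytes) lay at 275.3 to 467.1 against 134.3 to 515.5 RPKM. The summed epithelial markers were at 6400.9, 11209 and 8389.9 RPKM in infant 1, 2 and 3, highest in infant 2. In young adult 1, 2 and 3 they were at 1791.1, 4725.1 and 8211.5 RPKM. Globin transcripts made up 11, 3.41 and 23.5% of the summed RPKM in the infant libraries and at most 0.487% in the young adult libraries, and infant 2 was the lowest infant library for globin and Pdgfra. Of the 9 fibroblast markers tested, Dcn and Lum went the other way, with their highest infant value in infant 2 (19.9 against 7.6 and 8.0 RPKM for Dcn, and 14.4 against 4.1 and 4.7 RPKM for Lum). The infant libraries also held the Y-linked transcript Ddx3y (16.5 to 21.9 RPKM), which was 0 in the young adult libraries, so that the sex of the mice and age cannot be told apart, although the methods name female mice. The LYVE1 sort was not mirrored in RNA, since Lyve1 lay between 68.6 and 171.4 RPKM in infant and between 252.9 and 396.4 in young adult libraries. Of the marker lists, 7 of 7 erythroid, 3 of 7 leukocyte and 4 of 9 epithelial genes were called lower in young adult EC, with 1 epithelial gene higher. Among lists of vessel types, 3 of 6 general capillary genes were called higher. Of aerocyte and of arterial genes, 1 of 6 each was called lower, where 3.33% and 8.1% of all genes were called higher and lower. The values of these other cell types stand beside the results because their part in any of them was not tested.

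Across the whole table, 1424 of 12458 genes (11.4%) were called, that is, had an adjusted p under 0.05 (limma, Benjamini-Hochberg over all genes tested) and a fold change over 1.75 (0.81 on the log2 scale of RPKM + 1). Higher in young adult were 415 genes (3.33%) and lower 1009 (8.1%). Of the 7 shear stress genes, 0 were called by limma, and 2 (Mef2c and Mapk7) had an unadjusted p under 0.05. At an adjusted p under 0.05 with any fold, which 25.5% of all genes reached, stood 1 member, Mef2c. In 2 members, Mef2c and Mapk7, the 3 values of 1 age did not overlap those of the other, against 43.4% of all genes. In bulk RNA, fewer cells of a type and less RNA per cell cannot be told apart, and this holds for each value that follows.

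**Figure D1:**
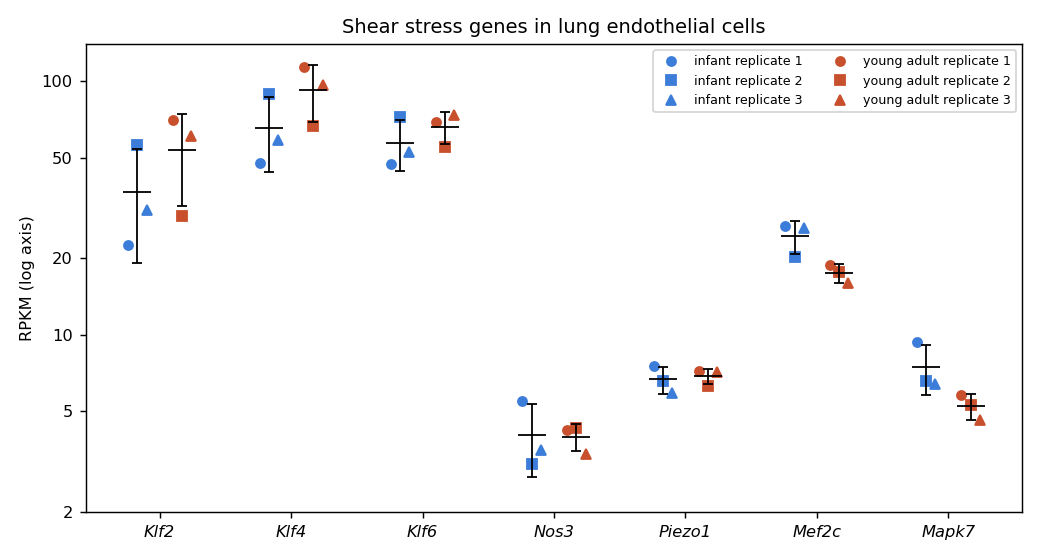
RPKM of the 7 shear stress genes (log axis) in 3 infant (blue) and 3 young adult (red) libraries, 1 point per library with the mean and SD as black bars. Klf2, Klf4 and Klf6 overlap between ages, with infant 2 as the highest infant and young adult 2 as the lowest young adult library, while Mef2c and Mapk7 separate by age.

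The level of the members, per length and library, ran from the Krüppel-like factors at the top to Nos3 at the bottom. In infant EC the order of the mean RPKM was Klf4, Klf6, Klf2, Mef2c, Mapk7, Piezo1 and Nos3. Neighbours overlapped in their values except Mef2c with Mapk7 and Piezo1 with Nos3. In young adult EC, Piezo1 stood before Mapk7, and only Klf4 with Klf6 and Klf6 with Klf2 overlapped. By its mean level in infant EC, Klf4 was above 94.3% of all 12623 genes, before the filter on low values, and Nos3 above 37.3%.

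The sensor comes first. Piezo1, a mechanically gated cation channel of the plasma membrane (chromosome 8, 122481698 to 122551329, minus strand, 51 exons in GRCm38.p6), was at 7.5, 6.6 and 5.9 RPKM in the infant libraries, against 7.2, 6.3 and 7.1 RPKM in the young adults. The ages overlapped fully and the means were 6.67 ± 0.802 and 6.87 ± 0.493 RPKM (SD, n = 3 each). The log2 fold change of 0.04 (95% interval -0.22 to 0.30, adjusted p = 0.815) has its interval inside the fold threshold. Its sister channel Piezo2, named here after its values were seen, was more abundant per length at 24.6, 28.4 and 23.5 RPKM in the infant libraries, against 15.6, 13.0 and 19.2 RPKM in the young adults. Its groups did not overlap, but the log2 fold change of -0.66 (adjusted p = 0.0183) was under the fold threshold.

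The kinase and transcription factor between sensor and Krüppel-like factors were both at a lower mean in young adult EC. Mapk7 (ERK5, chromosome 11, 61488812 to 61494267, minus strand, 7 exons) was at 9.4, 6.6 and 6.4 RPKM in the infant libraries, against 5.8, 5.3 and 4.6 RPKM in the young adults. Every young adult value was under every infant value, by a narrow gap. The mean of young adult EC was 0.701 times that of infant EC (5.23 ± 0.603 against 7.47 ± 1.68 RPKM, SD, n = 3 each), and the log2 fold change of -0.43 (SE 0.15, interval -0.78 to -0.07) missed the threshold at an adjusted p of 0.0763.

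Mef2c (chromosome 13, 83504017 to 83667079, plus strand, 11 exons) was at 26.8, 20.3 and 26.5 RPKM in the infant libraries, against 18.9, 17.7 and 16.0 RPKM in the young adults. Infant 2 was the lowest infant value and lay close to the young adult libraries. The log2 fold change was -0.45 (SE 0.13, interval -0.76 to -0.15, adjusted p = 0.0391), from a mean of 24.5 ± 3.67 to 17.5 ± 1.46 RPKM (SD, n = 3 each), 0.715 times the infant level and therefore not called. Leaving out infant 2 gave -0.58 (adjusted p = 0.00451), and leaving out any of the other 5 libraries gave adjusted p between 0.0766 and 0.124. The second row of Mef2c held 24.9, 18.6 and 24.7 RPKM in the infant libraries, against 17.5, 16.2 and 14.8 RPKM in the young adults. In every library the first row was 1.07 to 1.09 times the second, so the 2 rows, isoforms of 1 gene, carry 1 pattern.

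Klf2 (chromosome 8, 72319062 to 72321654, plus strand, 3 exons) was at 22.6, 56.1 and 31.2 RPKM in the infant libraries, against 70.1, 29.5 and 60.6 RPKM in the young adults. The groups overlapped widely, since infant 2 was close to young adult 3 and young adult 2 was below infant 3. The means of 36.6 ± 17.4 and 53.4 ± 21.2 RPKM (SD, n = 3 each) differed 1.46-fold, with a log2 fold change of 0.54 (SE 0.39, interval -0.37 to 1.45, adjusted p = 0.337). The interval is wide and reaches past the fold threshold, so it does not leave out a 1.75-fold higher level in young adult EC. Within an age the highest library was 2.48 times (infant) and 2.38 times (young adult) the lowest, and the spread within ages was above that of 98% of the genes with a mean of at least 5 RPKM.

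Klf4 (chromosome 4, 55527137 to 55532475, minus strand, 5 exons) was at 47.8, 89.5 and 58.7 RPKM in the infant libraries, against 113.9, 66.9 and 97.1 RPKM in the young adults. Again infant 2 reached into the young adult range and young adult 2 into the infant range. The means were 65.3 ± 21.6 and 92.6 ± 23.8 RPKM (SD, n = 3 each), with a log2 fold change of 0.51 (SE 0.26, interval -0.10 to 1.13, adjusted p = 0.187). Without infant 2 the log2 fold change was 0.76 (adjusted p = 0.0296), still under the fold threshold.

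Klf6 (chromosome 13, 5861489 to 5870393, plus strand, 4 exons) was at 47.4, 72.1 and 52.5 RPKM in the infant libraries, against 69.3, 55.2 and 73.8 RPKM in the young adults. The order of the libraries within each age was again led by infant 2 and closed by young adult 2, over a smaller range. The log2 fold change was 0.21 (SE 0.18, interval -0.20 to 0.63, adjusted p = 0.407), an interval inside the fold threshold.

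**Figure D2:**
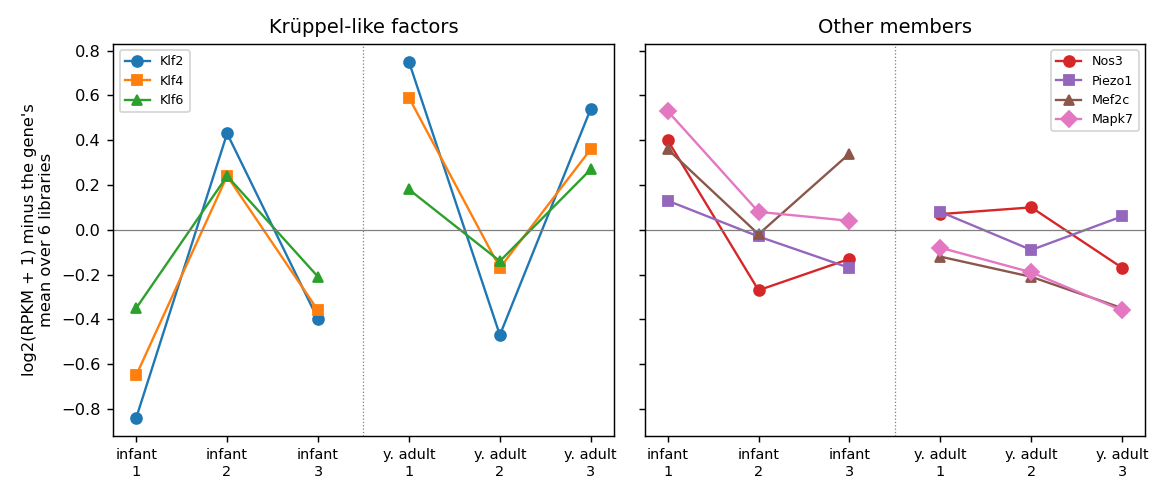
Each gene's log2(RPKM + 1) minus its own mean over the 6 libraries, by library, for the Krüppel-like factors (left) and the other members (right). Klf2, Klf4 and Klf6 peak in infant 2 and dip in young adult 2 within their age, with Klf2 spanning -0.84 (infant 1) to 0.75 (young adult 1), while Mef2c and Mapk7 are lower in all young adult libraries.

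The 3 Krüppel-like factors ranked the infant libraries alike, with infant 2 first, then 3, then 1, as the plot of centred values by library shows. Infant 2 was the highest infant library and young adult 2 the lowest young adult library for all 3 of them, an order chosen after the values were seen that 1584 of 12458 genes (12.7%) share, and 15.2% of the genes with a mean of at least 5 RPKM. The ratio of Klf4 to Klf2 was 2.12, 1.60 and 1.88 in infant and 1.62, 2.27 and 1.60 in young adult EC, highest within each age where Klf2 was lowest. By the root mean square difference of centred log2(RPKM + 1) over the 6 libraries, the genes outside the members nearest to Klf2 were Epha2 (0.219), Il1a (0.258) and Plaur (0.277), among 6978 genes with a mean of at least 5 RPKM. Klf4 itself was at 0.194 from Klf2, nearer than any of them, while Klf6 at 0.368 had rank 27. From Klf4, Klf2 had rank 10 and Klf6, at 0.216, rank 34. Epha2, an ephrin receptor, was at 10.5, 16.9 and 11.8 RPKM in the infant libraries, against 21.4, 10.0 and 20.4 RPKM in the young adults. Nearest to Klf4 were Cdc42ep2 (0.125), Plaur, the urokinase receptor (0.133), and Foxf1, a lung mesenchyme and EC transcription factor (0.133).

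Nos3, which makes nitric oxide from arginine (chromosome 5, 24364816 to 24384474, plus strand, 26 exons), was at 5.5, 3.1 and 3.5 RPKM in the infant libraries, against 4.2, 4.3 and 3.4 RPKM in the young adults. The young adult values all lay within the infant range. The means of 4.03 ± 1.29 and 3.97 ± 0.493 RPKM (SD, n = 3 each) gave a ratio of 0.983, and the log2 fold change was 0.01 (SE 0.18, interval -0.42 to 0.43, adjusted p = 0.987), an interval inside the fold threshold. Cdh5 was between 42.3 and 100 times as abundant per length as Nos3. The infant library with the most Nos3, infant 1, was the one with the least Klf2. Nearest to Nos3 in pattern were Plekhg5 (0.0839), Sec16a (0.0885) and Clock (0.0917). All of them were also highest in infant 1, which their choice by likeness to Nos3 makes likely.

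**Figure D3:**
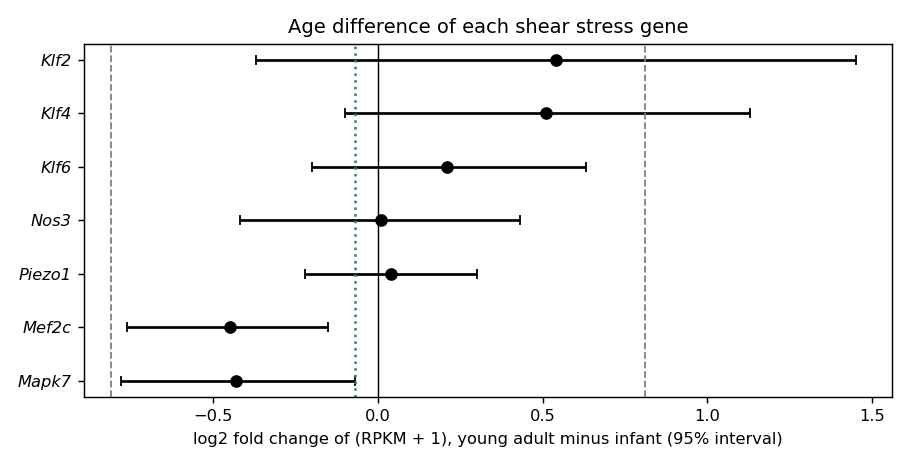
Log2 fold change of RPKM + 1, young adult minus infant, with its 95% interval (limma) for each member; dashed lines mark the 1.75-fold threshold and the dotted line the median of all genes (-0.07). The interval of Klf2 and Klf4 passes the upper threshold, and those of Mef2c and Mapk7 lie below 0 but within the lower threshold.

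The signs of the small differences depend on scale. Over all genes the median difference was -0.07 on the log2 scale. It shifted to -0.36 when libraries were scaled to endothelial markers (8 of the 16 listed). That scaling turned Nos3 to -0.28, Piezo1 to -0.27 and Klf6 to -0.13. Relative to the median of all genes in that scaling, they were at 0.08, 0.10 and 0.23, and Klf2, Klf4, Mef2c and Mapk7 at 0.56, 0.53, -0.43 and -0.37.

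The genes around the members were read from 8 lists of the pathway, 118 genes in all, chosen with earlier results of these data known. Of these, 31 were called (11 upwards with age and 20 downwards), and 18 of the 31 in each of the 6 fits that leave out 1 library. Over all genes 11.4% were called, 3.33% higher and 8.1% lower, the shares to set beside each list count that follows. Of 19 sensor and junction genes tested, 2 passed as higher and 1 as lower, and their median stood at 0.02 on the log2 scale against -0.07 over all genes. Trpv4, a calcium channel that opens under stretch and flow, rose from 1.4, 1.2 and 1.0 RPKM in infants to 4.3, 4.2 and 3.6 RPKM in young adults (1.20 on the log2 scale, adjusted p = 0.0014). Gpr56, an adhesion receptor, rose from a mean of 16.0 ± 3.50 to 30.0 ± 6.77 RPKM (SD over 3 libraries, as for the means that follow, log2 0.86, adjusted p = 0.0204), a call lost in 4 of the 6 fits that leave out 1 library and in 2 of 4 other scalings. Sdc4, a heparan sulfate proteoglycan of the cell surface, fell from 36.2 ± 7.75 to 18.0 ± 3.16 RPKM (-0.96, adjusted p = 0.0115), a call lost without young adult 1 and without young adult 2. The 3 calls of the list became 1 without young adult 2 and 5 without infant 2.

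Of the 6 other genes of the ERK5 and MEF2 cascade 0 were called, with a median of -0.23. Mef2a, the most abundant of them, was at 26.1, 20.2 and 20.7 RPKM in the infant libraries, against 15.2, 12.9 and 15.0 RPKM in the young adults, without overlap but under the fold threshold (-0.60, adjusted p = 0.0149). Map3k3, a kinase at the head of the ERK5 cascade, had means of 14.4 ± 2.59 and 19.9 ± 1.5 RPKM in the other direction (0.45, adjusted p = 0.0511). Mef2b, which may share reads with an overlapping readthrough transcript and is uncertain for that, was at -0.24 (adjusted p = 0.164).

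The brakes on the cascade, the class IIa histone deacetylases that bind MEF2 and the cerebral cavernous malformation complex that holds back ERK5 signalling, gave 0 calls among 8 genes (median -0.04). Hdac7 was at 37.0, 50.1 and 38.3 RPKM in the infant libraries, against 57.3, 54.5 and 59.1 RPKM in the young adults (0.45, adjusted p = 0.0416, under the fold threshold). Pdcd10 was at 0.06 (adjusted p = 0.755) and Heg1, the receptor that anchors the complex, at 0.41 (adjusted p = 0.0574). Of the 8 genes, 4 were above 0 and 4 below. Among those below were Hdac4 (-0.47, adjusted p = 0.0135) and Hdac9 (-0.35, adjusted p = 0.0935), named here after their values were seen. Both were lower in young adult EC without overlap but under the fold threshold.

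Genes that laminar flow or KLF2 are known to induce were called higher in 6 and lower in 1 of 17 tested, with a median of 0.49, where 3.33% and 8.1% of all genes were called higher and lower. Cyp1a1, a cytochrome of the aryl hydrocarbon receptor pathway, rose from 0.4, 0.1 and 0.6 RPKM in infants to 143.9, 142.1 and 133.7 RPKM in young adults (6.70 on the log2 scale, adjusted p = 1.04e-06). Ass1, which renews arginine for nitric oxide synthesis, rose from a mean of 6.40 ± 1.13 to 16.8 ± 2.17 RPKM (1.27, adjusted p = 0.00196). Tek, the angiopoietin receptor TIE2, rose from 101 ± 17.8 to 245 ± 59.4 RPKM (1.25, adjusted p = 0.00712).

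Nqo1, a quinone reductase, rose from 1.13 ± 0.513 to 3.27 ± 0.503 RPKM (1.02, adjusted p = 0.00994). S1pr1, the sphingosine phosphate receptor, was at 192.9, 399.0 and 198.4 RPKM in the infant libraries, against 494.5, 507.6 and 461.0 RPKM in the young adults (0.97, adjusted p = 0.0385), and infant 2 stood between the groups. Thbd, the anticoagulant thrombomodulin, was called at 0.84 (256.6, 375.5 and 257.3 against 527.4, 527.7 and 513.5 RPKM, adjusted p = 0.0162). The calls of S1pr1 and Thbd were lost in 5 of the 6 fits that leave out 1 library and in 3 of 4 other scalings. Sod3, the extracellular superoxide dismutase, fell from 23.2, 8.9 and 17.9 RPKM to 1.1, 3.1 and 2.0 RPKM (-2.48, adjusted p = 0.00407), and was lowest among infant libraries in infant 2, as Pdgfra was. Smad6, an inhibitor of TGFB family signalling, is named here after its values were seen. It was at 9.8, 11.3 and 8.1 RPKM in the infant libraries, against 15.7, 17.4 and 15.8 RPKM in the young adults. The groups did not overlap, but the log2 fold change of 0.70 (adjusted p = 0.00914) was under the fold threshold. The list was chosen with earlier results of these data known. Thbd, Tek and Smad6 were also picked out by the study on these same libraries. Neither its count nor the direction of its genes is therefore independent evidence. Without infant 2 the list gave 7 genes higher and 1 lower, with a median of 0.72, and without any 1 of the other 5 libraries it gave 4 higher and 1 lower. It gave 4 and 1 also after quantile normalization and after rescaling without globin genes, and 3 and 2 when scaled to 8 endothelial markers. The median of all 16 endothelial markers was 0.37, against 0.49 for this list. Relative to the median of all genes, the list stood at 0.56, and at 0.51 when scaled to endothelial markers. The part of endothelial content in these values was not tested beyond that scaling.

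Genes known to be held down by laminar flow moved both ways, with 3 called higher and 5 lower of 14 tested and a median of -0.04. The 8 calls became 5 (2 higher and 3 lower) without infant 3, young adult 1 or young adult 2, and 11 without infant 2. Higher in young adult EC were Vcam1, a leukocyte adhesion molecule that also stands in the venous marker list, from 3.7, 4.3 and 2.5 to 21.5, 18.9 and 14.5 RPKM (2.10, adjusted p = 0.000998), and Edn1, the vasoconstrictor endothelin, from 14.3, 18.6 and 13.3 to 41.2, 55.1 and 42.2 RPKM (1.53, adjusted p = 0.00148). Txnip, an inhibitor of thioredoxin, was called at 1.19 (adjusted p = 0.0416), a call lost in 5 of the 6 fits that leave out 1 library. The venous marker list had 3 genes called higher and 1 lower of 5 tested, with a summed level of 65.1 to 76.8 RPKM in infant and 177.3 to 264.7 RPKM in young adult libraries, and its part in the level of Vcam1 was not tested.

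Lower in young adult EC were Thbs1 (thrombospondin, -2.68, adjusted p = 0.00245), Cyr61 (-2.32, adjusted p = 0.00945), F3 (tissue factor, the trigger of coagulation, -2.06, adjusted p = 0.00146), Ccl2 (a monocyte chemokine, -1.42, adjusted p = 0.023) and Ctgf (-1.25, adjusted p = 0.0252). Thbs1 was at 90.8, 33.8 and 79.9 RPKM in the infant libraries, against 8.5, 9.5 and 8.9 RPKM in the young adults, lowest among infant libraries in infant 2. F3 was level within infants, at 5.7, 5.7 and 5.1 RPKM, against 0.1, 1.0 and 0.7 RPKM. The calls of Ccl2 and Ctgf were lost in 4 of the 6 fits that leave out 1 library. Of 9 fibroblast markers 8 were called lower in young adult EC, with a summed level of 1271.5, 320.3 and 880.5 RPKM in the infant libraries and 10.1 to 21.9 RPKM in the young adult libraries, and of 10 mural markers 9, with 241.7, 79.6 and 249 RPKM against 12.8 to 18.2 RPKM. Their part in these values was not tested.

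The nitric oxide pathway around Nos3 had 0 genes called higher and 4 lower of 25 tested, with a median of -0.11. All 4 act downstream of nitric oxide, in the cells that receive it. Gucy1a3 and Gucy1b3, the subunits of soluble guanylate cyclase, fell from 33.8, 18.9 and 41.6 to 1.9, 3.5 and 2.0 RPKM (-3.19, adjusted p = 0.000998) and from 23.2, 23.3 and 33.6 to 4.1, 6.3 and 5.7 RPKM (-2.12, adjusted p = 0.000967). Pde5a, which breaks down cGMP, fell from 24.1, 7.5 and 26.1 to 2.9, 2.7 and 2.9 RPKM (-2.23, adjusted p = 0.00897), and Prkg1, the cGMP-dependent kinase, from a mean of 3.57 ± 0.289 to 1.23 ± 0.208 RPKM (-1.03, adjusted p = 0.00213). These genes are also known from smooth muscle and pericytes, and the mural markers given above were highest in the same infant libraries (1 and 3) as Pde5a and Gucy1a3, whereas Gucy1b3 was at 23.2 and 23.3 RPKM in infant 1 and 2. Nos2, the inducible synthase, named here after its values were seen, was more abundant per length than Nos3, at 13.2, 13.8 and 14.3 RPKM in the infant libraries, against 9.2, 7.1 and 9.2 RPKM in the young adults (-0.64, adjusted p = 0.00914, under the fold threshold).

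**Figure D4:**
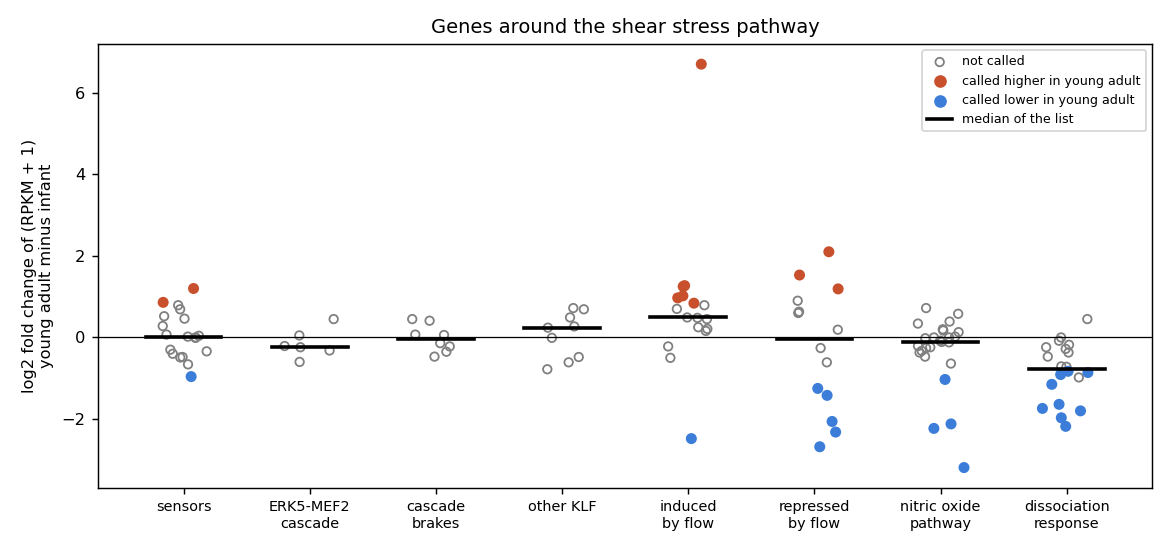
Log2 fold change of RPKM + 1, young adult minus infant, of each tested gene of the 8 pathway lists, with called genes filled (red higher, blue lower in young adult) and a black bar at each list's median. Genes induced by flow have a median of 0.49, genes repressed by flow spread from -2.68 to 2.10, and 19 of 20 dissociation response genes lie below 0.

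Of 9 other Krüppel-like factors 0 were called (median 0.24). Klf7 was at 0.24 (adjusted p = 0.432) and Klf13 at -0.01 (adjusted p = 0.975). Klf10, which TGFB induces, was at 61.2, 72.6 and 62.8 RPKM in the infant libraries, against 100.7, 115.8 and 102.2 RPKM in the young adults, without overlap and with little spread within an age, but under the fold threshold (0.69, adjusted p = 0.00701). Of the 9 factors, 5 were above 0 and 4 below. Named here after their values were seen, Klf3 (0.72, adjusted p = 0.0218) was higher without overlap. Klf11 (-0.78, adjusted p = 0.0185), Klf12 (-0.61, adjusted p = 0.0231) and Klf8 (-0.48, adjusted p = 0.0367) were lower without overlap. All of these were under the fold threshold. Scaled to endothelial markers, the medians of the other Krüppel-like factors (-0.11) and of the sensors (-0.32) lay below 0, and that of the genes induced by flow was 0.14, where the median of all genes was -0.36.

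Klf2, Klf4 and Klf6 are also known as immediate early genes that respond to tissue digestion and sorting, so 20 genes of that response were read beside them. In young adult EC 0 of them were called higher and 9 lower, and the median of the list was -0.78. The 9 were Nr4a1 (-2.18), Fos (-1.97), Egr1 (-1.80), Fosb (-1.74), Junb (-1.64), Hspa1a (-1.15), Ier2 (-0.91), Zfp36 (-0.86) and Gadd45b (-0.83). Fos was at 318.4, 193.0 and 330.0 RPKM in the infant libraries, against 81.6, 59.3 and 67.6 RPKM in the young adults. The calls of Hspa1a, whose reads may be split with its near-identical copy Hspa1b, and of Gadd45b were lost in 4 of the 6 fits that leave out 1 library, that of Ier2 in 3, those of Junb and Zfp36 in 2 and that of Nr4a1 in 1. The 9 calls became 5 without infant 1 or without young adult 2. The summed level of the list was 2341.9, 1922.4 and 2179.6 RPKM in the infant libraries, against 1566.6, 1254.1 and 1488.9 RPKM in the young adults. Infant 2 was thus the lowest infant library for this list where it was the highest for Klf2, Klf4 and Klf6, whereas young adult 2 was the lowest young adult library for both. The summed endothelial markers given above were, like these 3 factors, highest among infants in infant 2, but lowest among young adults in young adult 1. The part of this response and of endothelial content in the members' levels was not tested, beyond the scaling to endothelial markers given above.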

How the data were processed

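RNA-seq of sorted lung EC was analysed in 6 libraries (3 infant, 3 young adult), grouped by title. According to the methods, RNA was amplified with a SMARTer Ultra Low kit, sequenced as paired ends, aligned by the authors to mm10 with STAR, counted on RefSeq and tested with DESeq2. The deposited values are RPKM, rounded to 1 decimal, 1 row per RefSeq transcript. The STAR version and the RPKM program are not given in the sources used here. The methods give an average transcriptome coverage over the libraries. The read count of each library is unknown, since rounding did not allow reads to be computed back. RPKM is relative to all reads of a library, so that globin reads lower all other genes. 0 columns of values were left unmapped.

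24 rows whose symbol had become a date were restored from their RefSeq identifier. Per gene, the row with the highest mean RPKM was kept (2842 genes had more than 1). log2(RPKM + 1) was tested with limma 3.58.1 in R 4.3.3 (lmFit, eBayes with trend, age as only term) on the 12458 genes that reached 1 RPKM in any library, with Benjamini-Hochberg adjustment. Filter and 1.75-fold threshold follow the study's methods. The pseudocount understates fold changes of low genes. The script was tested on simulated data. With 3 libraries per age an exact permutation test of 1 gene cannot pass 0.05. p-values measure the spread between these libraries.

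Members, lists and markers were chosen with earlier results of these data known. Named were the 7 members, every called gene of a list (where fewer than 3, also the most abundant up to 3) and the 3 genes nearest in pattern to Klf2, Klf4 and Nos3. Pathway genes given outside this rule are marked as named after their values were seen. Promoter windows and gene positions are from RefSeq on GRCm38.p6, and transcripts from GENCODE. Alternatives were other pseudocounts, filters, scalings, limma settings, transcript rows, the replicate block and leaving out each library.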

Additional observations from a re-analysis of the deposited data

How the results depend on the processing

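Of the 7 members 0 were called under every alternative that kept the fold threshold. Without it, 1 (Mef2c) passed. Leaving out 1 library moved the log2 fold change of Klf2 between 0.25 and 0.91, Klf4 between 0.32 and 0.76, Klf6 between 0.09 and 0.39, Mef2c between -0.58 and -0.39, Mapk7 between -0.52 and -0.27, Piezo1 between -0.033 and 0.12 and Nos3 between -0.13 and 0.20. The sign of Nos3 turned with a pseudocount of 5 (-0.0028), array weights (-0.016), rescaling without globin genes (-0.15) and scaling to endothelial markers (-0.28), that of Piezo1 under these scalings (-0.13 and -0.27) and that of Klf6 in the latter (-0.13). Mef2c had an adjusted p of 0.0527 after quantile normalization and 0.0532 after median of ratios scaling. Mapk7 passed 0.05 under rescaling without globin (-0.60, adjusted p = 0.0267) and scaling to endothelial markers (-0.73, adjusted p = 0.0253). Of all genes, 1424 were called, 578 with a pseudocount of 5, 176 with limma treat, 3176 without a fold threshold and 842 to 1874 without 1 library. Quantile normalization called 532 higher and 611 lower, rescaling without globin 301 and 1439, and endothelial scaling 237 and 1822, against 415 and 1009. Of the pathway genes 31 were called, and 20 (without young adult 2) to 38 (without infant 2) when 1 library was left out. The causes were not tested. Deviations from the age means in libraries with the same number had correlations of -0.042, -0.163 and -0.052. These values gave no sign that the numbers pair the libraries, but with 3 libraries per age they cannot exclude it. With the replicate block 1371 genes, 0 members and 30 pathway genes were called, Mef2c had an adjusted p of 0.0611 and the log2 fold changes of Klf2 and Klf4 stayed 0.54 and 0.51. The unknown read count of each library limits what can be said of genes with low RPKM.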
